A study of Homo sapiens with 18 samples.

Results

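RNase H and gapmer-handling genes are followed here in K562 cells given antisense gapmers. The members are the 10 rows of the count table whose symbols are RNASEH1, RNASEH2A, RNASEH2B, RNASEH2C, NONO, SFPQ, PSPC1, XRN1, XRN2 and STAB1. They were named for what they encode, not by a measured value, and they are 10 of 27781 genes in the table. All 10 had enough counts to be tested. K562 is an established line from a chronic myeloid leukemia, with BCR-ABL1. Both groups were K562 cells grown in the same medium, transfected with gapmers and harvested 48 hours later in TRIzol. Knockdown cells received a gapmer against circPCMTD1, at the joint that closes this circular RNA of the PCMTD1 locus. Control cells received a scrambled gapmer, so both groups carried oligonucleotide, and untreated cells are not compared here. There were 3 biological replicates per group, and each was sequenced as 3 technical libraries. The labels do not say whether the replicates were separate cultures, so p-values measure the spread between these samples, which may be largely technical.

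Gapmers are short antisense oligonucleotides with a DNA centre that pairs with a target RNA. RNase H enzymes cut the RNA strand of such an RNA:DNA hybrid. The cut leaves a fragment with an open 5′ end for the exonucleases XRN1 in the cytoplasm and XRN2 in the nucleus, and another with an open 3′ end for the RNA exosome. Many gapmers have a phosphorothioate backbone, which binds nuclear proteins of paraspeckles, among them NONO, SFPQ and PSPC1. Stabilin-1, encoded by STAB1, is a scavenger receptor of macrophages and sinusoidal endothelium that can take up such oligonucleotides. The labels do not give the chemistry or the sequence of the gapmers used.

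The samples behaved as labelled for the targeted locus. PCMTD1 counts, which add circular and linear RNA, had a log2 fold change of -0.74 (SE 0.052; edgeR quasi-likelihood fit, adjusted p = 7.57e-10). Library totals ran from 19118533 to 29432699 counts. All 10 K562 markers examined, among them GATA1 and the fetal globin genes, were at 47.0 CPM or more in every sample. Knockdown libraries 3_2 and 3_3 (replicate 3, technical libraries 2 and 3) stood apart: their log2 CPM, set against the mean of the other knockdown libraries, correlated across 13443 genes with transcript GC content at r = -0.38 and -0.47. The other 7 knockdown libraries had r from -0.04 to 0.26 and the scrambled libraries from -0.27 to 0.15. Several results are also given without this GC-shifted pair.

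Of the 10 genes, 2 rose in knockdown cells (RNASEH2B and STAB1), 1 fell (PSPC1) and 7 did not pass the test. Across all 15678 genes tested, 18.6% were called at an adjusted p below 0.05, 11.1% as raised and 7.49% as lowered. The 3 calls among 10 genes are read against that background, and with so few genes the share says nothing particular about the group. The median log2 fold change of the 10 was -0.02, beside 0.002 over all genes tested. For the 7 genes that did not pass, 95% confidence intervals ran from a change of -9.0% to one of 7.9%. Changes beyond that range were outside these intervals, while smaller ones could not be detected at this spread.

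**Figure D1:**
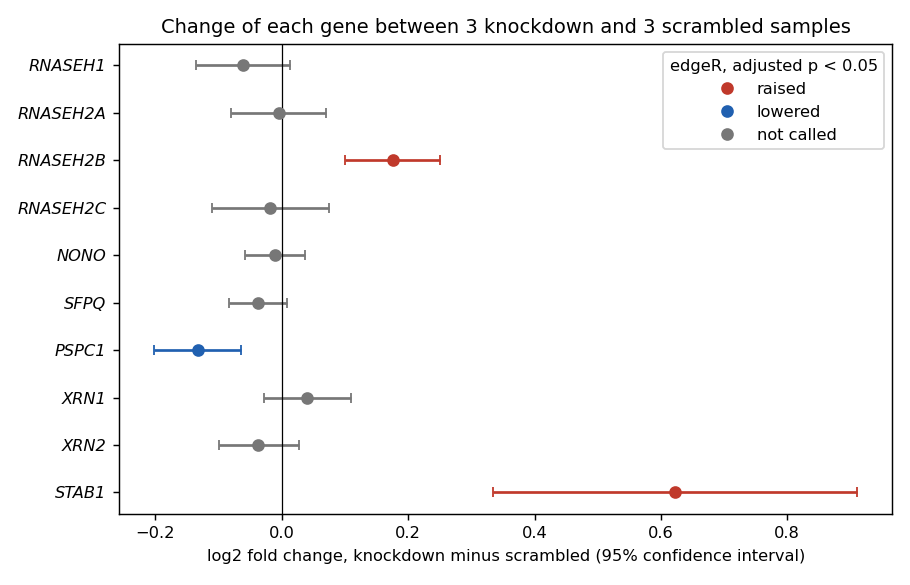
Log2 fold change of each gene, knockdown minus scrambled, with its 95% confidence interval from edgeR's quasi-likelihood fit to 3 against 3 samples. STAB1 has the widest interval (0.34 to 0.91), RNASEH2B lies at 0.18 and PSPC1 at -0.13, and the intervals of the other 7 genes include 0.

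RNASEH1 encodes the monomeric RNase H1, the enzyme through which gapmers chiefly act, and it also works in mitochondria. The gene spans bases 3544793 to 3558616 of chromosome 2, minus strand (build GRCh38, GENCODE release 29). Scrambled replicates 1, 2 and 3 had 47.8, 46.8 and 47.1 CPM (counts scaled to library size with TMM factors). Knockdown replicates 1, 2 and 3 had 46.0, 46.5 and 43.3 CPM. The 3 knockdown values lay just below the 3 scrambled values, and knockdown replicate 3 was the lowest of all. The difference did not pass the test, with a log2 fold change of -0.06 (SE 0.036, 95% interval -0.14 to 0.01, adjusted p = 0.256 in edgeR). Knockdown libraries 3_2 and 3_3 had 43.1 and 41.5 CPM, below the other knockdown libraries, which had 44.7 to 47.4 CPM. Without those libraries the log2 fold change was -0.04.

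RNase H2 is the heterotrimer that also removes single ribonucleotides from DNA. RNASEH2A encodes its catalytic subunit, and RNASEH2B and RNASEH2C encode the subunits that hold the complex together and link it to the replication clamp. Inherited loss of function in any of the subunits causes Aicardi-Goutières syndrome. RNASEH2B was the subunit gene that changed.

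RNASEH2B lies on the plus strand of chromosome 13 from 50909678 to 51024120. Scrambled replicates had 32.1, 32.5 and 32.8 CPM. Knockdown replicates had 36.0, 36.4 and 37.6 CPM. Every knockdown replicate was above every scrambled one. Of the 9 knockdown libraries, 8 lay above the highest scrambled library at 34.4 CPM, and the remaining one, 1_3, overlapped the scrambled range at 33.45 CPM. RNASEH2B rose 1.13-fold (log2 fold change 0.18, SE 0.037, 95% interval 0.10 to 0.25, adjusted p = 0.00159 in edgeR). Its transcript is poor in GC (39.5%), the kind of transcript that was high in knockdown libraries 3_2 and 3_3, and the log2 fold change of RNASEH2B was 0.161 without the pair and 0.165 with a correction for GC content. An antisense gene, RNASEH2B-AS1, overlaps 282 bases of its annotated exons and was at a mean of 0.0748 CPM in scrambled samples.

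RNASEH2A lies on the plus strand of chromosome 19 from 12806556 to 12815201. Scrambled replicates had 67.2, 67.3 and 63.3 CPM, and knockdown replicates 67.7, 66.7 and 62.8 CPM. The groups overlapped throughout, and in both of them replicate 3 was the lowest. The log2 fold change was -0.005 (SE 0.036, 95% interval -0.08 to 0.07, adjusted p = 0.95), and 0.02 without the GC-shifted pair (adjusted p = 0.532). A same-strand gene model, THSD8, covers 30.8% of the annotated exon bases of RNASEH2A. The count table has no row of that symbol, and the annotation used for counting is not given. Whether THSD8 affected the RNASEH2A count is therefore not known.

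RNASEH2C spans bases 65714005 to 65720947 of chromosome 11, minus strand. Scrambled replicates had 35.3, 34.4 and 35.1 CPM, and knockdown replicates 35.4, 36.5 and 31.6 CPM. Knockdown replicates 1 and 2 were above all scrambled replicates and replicate 3 was below them, so the log2 fold change of -0.02 (SE 0.044, adjusted p = 0.826) averages values that differ within the group. The low value came from libraries 3_2 and 3_3, at 31.9 and 27.4 CPM, while the other knockdown libraries had 33.9 to 37.9 CPM. Leaving them out gave RNASEH2C a log2 fold change of 0.04 (adjusted p = 0.418), and a correction for GC content gave -0.03. Its transcript is the richest in GC of the RNase H genes (56.4%). KAT5, which encodes a histone acetyltransferase, overlaps 28.2% of the annotated exon bases of RNASEH2C on the opposite strand. KAT5 fell from 35.7 ± 0.453 to 32.2 ± 1.49 CPM (SD, n = 3, adjusted p = 0.0107 in edgeR). Where counting ignored strand, reads of the 2 genes in the shared bases cannot be told apart.

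The balance among the RNase H2 subunits can be read within each sample, where scaling between samples cancels. RNASEH2B counts made up 23.9%, 24.2% and 24.99% of the summed CPM of the subunits in scrambled replicates. In knockdown replicates they made up 25.9%, 26.0% and 28.5%. The groups of 3 did not overlap, but single libraries did, with scrambled libraries from 23.1% to 26.6% and knockdown libraries from 24.4% to 30.2%. The highest knockdown shares, 28.9% and 30.2%, were those of libraries 3_2 and 3_3. The ratio of RNASEH2B to RNASEH2C CPM was 0.910, 0.943 and 0.934 in scrambled replicates and 1.02, 0.995 and 1.19 in knockdown replicates, with single libraries overlapping (0.827 to 1.03 and 0.937 to 1.39). These ratios were chosen after the values of single genes had been seen, and no test was made of them.

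**Figure D2:**
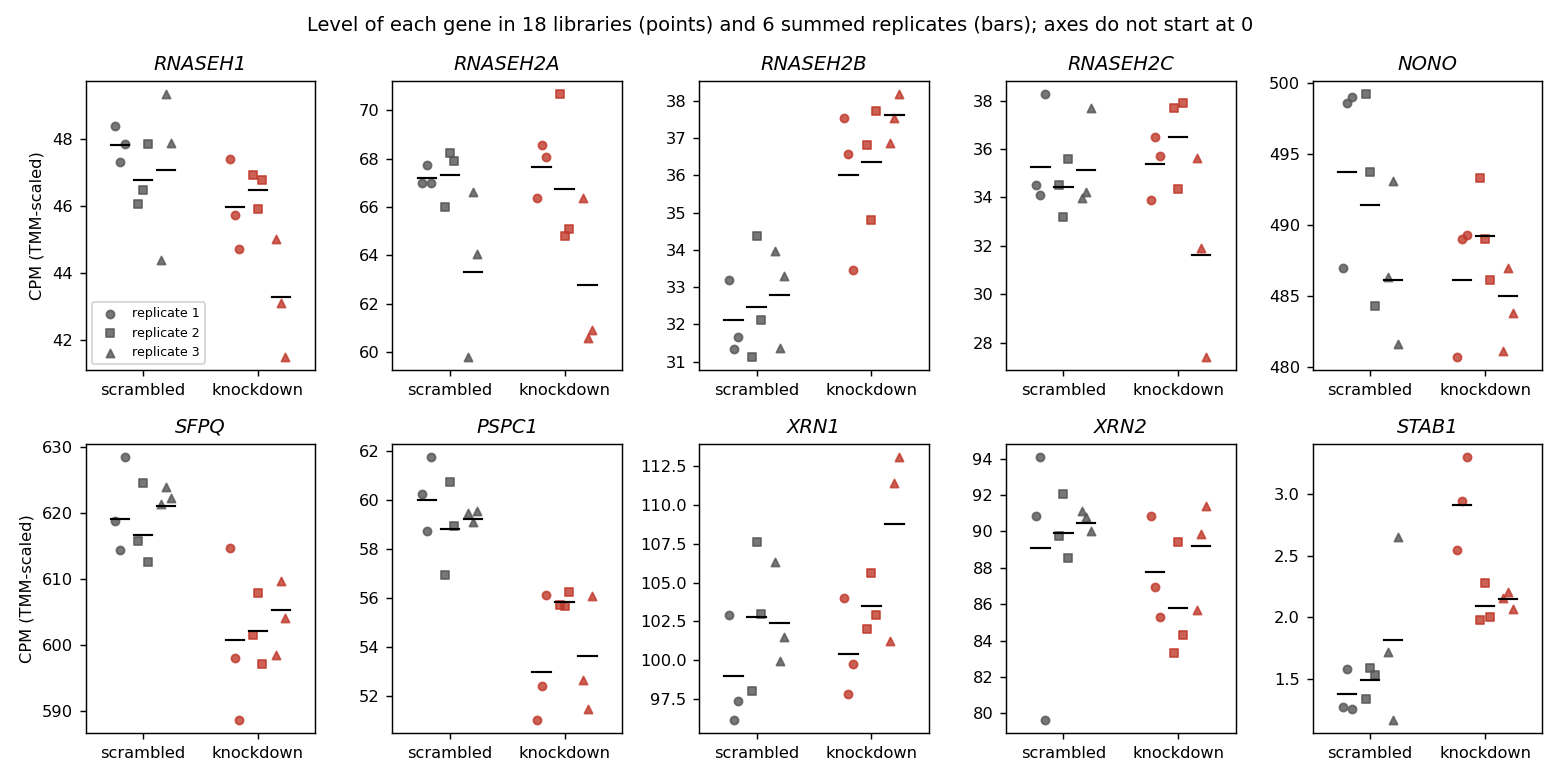
CPM of each gene in the 9 scrambled and 9 knockdown libraries (points, with the marker showing the biological replicate) and in the 3 summed replicates of each group (bars). PSPC1 libraries of the 2 groups do not overlap, RNASEH2B is higher in 8 of 9 knockdown libraries than in any scrambled one, and RNASEH1, RNASEH2A and RNASEH2C are lowest in knockdown replicate 3 among the knockdown replicates.

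NONO, SFPQ and PSPC1 are the members of the DBHS family (Drosophila behaviour, human splicing), RNA-binding proteins that pair with each other as dimers and build paraspeckles on the noncoding RNA NEAT1. PSPC1 fell, while NONO and SFPQ did not pass the test. All 3 had narrow spreads, with SEs of 0.033, 0.023 and 0.022 for PSPC1, NONO and SFPQ on the log2 scale.

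PSPC1 spans bases 19674752 to 19783019 of chromosome 13, minus strand. Scrambled replicates had 60.0, 58.8 and 59.2 CPM. Knockdown replicates had 53.0, 55.8 and 53.6 CPM. The groups were apart at the level of single libraries too, since the highest of 9 knockdown libraries was at 56.2 CPM and the lowest of 9 scrambled libraries at 56.9 CPM. Among all tested genes, 5.15% had libraries of the 2 groups that did not overlap. PSPC1 fell by 8.8% (log2 fold change -0.13, SE 0.033, 95% interval -0.20 to -0.06, adjusted p = 0.00705 in edgeR). Without scrambled replicate 1 the log2 fold change was -0.13 and the adjusted p 0.0514, so the call was lost, and without the GC-shifted pair the log2 fold change was -0.14 (adjusted p = 1.63e-05). PSPC1 has pseudogene copies, PSPC1P1 and PSPC1P2, with which it may share reads.

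SFPQ, at bases 35176378 to 35193148 of chromosome 1 (minus strand), encodes the largest of the family's proteins, which also acts in splicing and transcription. Scrambled replicates had 619, 617 and 621 CPM, and knockdown replicates 601, 602 and 605 CPM. All knockdown replicates lay below all scrambled ones, and 8 of 9 knockdown libraries lay below the lowest scrambled library at 612 CPM. The difference was small (-2.6%, log2 fold change -0.04, SE 0.022) and did not pass the test (adjusted p = 0.253). SFPQ passed as lowered in 5 other edgeR fits. Its adjusted p was 0.00465 without the GC-shifted pair, 0.0135 without knockdown replicate 3 and 0.0477 with a correction for GC content. It was 0.0199 with the 18 libraries entered singly, which counts technical libraries as samples. With libraries summed by their second number, which pools the replicates, it was 0.0205. The p-values of these last fits do not measure the spread between replicates.

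NONO, on the plus strand of the X chromosome from 71283192 to 71301168, encodes the partner also called p54nrb. Scrambled replicates had 494, 491 and 486 CPM, and knockdown replicates 486, 489 and 485 CPM. The groups overlapped, and the log2 fold change of -0.01 had a 95% interval from -0.06 to 0.04 (adjusted p = 0.797). A processed pseudogene, NONOP2, and for SFPQ the pseudogene SFPQP1, may take some reads of these genes. PSPC1 made up 5.12%, 5.04% and 5.08% of the summed CPM of the trio in scrambled replicates and 4.65%, 4.87% and 4.69% in knockdown replicates. This share was not tested, and single libraries overlapped, from 4.86% to 5.19% in scrambled and 4.45% to 4.95% in knockdown cells.

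XRN1 encodes the cytoplasmic exonuclease that degrades RNA from a 5′ end, and XRN2 its nuclear counterpart, which also helps to end transcription. Neither passed the test. XRN1, at bases 142306607 to 142448062 of chromosome 3 (minus strand), had 98.95, 103 and 102 CPM in scrambled and 100.4, 104 and 109 CPM in knockdown replicates. The groups overlapped, and knockdown replicate 3 stood highest through libraries 3_2 and 3_3, at 111 and 113 CPM, where the other knockdown libraries had 97.8 to 105.6 CPM. The log2 fold change was 0.04 (95% interval -0.03 to 0.11, adjusted p = 0.442), and 0.006 without those libraries. The XRN1 transcript is the poorest in GC of the 10 (37.3%).

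XRN2, on the plus strand of chromosome 20 from 21303304 to 21389827, had 89.1, 89.9 and 90.5 CPM in scrambled and 87.8, 85.8 and 89.2 CPM in knockdown replicates. The groups overlapped by a narrow margin, since knockdown replicate 3 was above scrambled replicate 1. Within that replicate, libraries 3_2 and 3_3 were at 89.9 and 91.4 CPM, and library 3_1 was at 85.7 CPM, below every scrambled replicate. The log2 fold change was -0.04 (95% interval -0.10 to 0.03, adjusted p = 0.449). Without the GC-shifted pair XRN2 was at -0.05, still short of the threshold (adjusted p = 0.0556). The ratio of XRN1 to XRN2 CPM was 1.11, 1.14 and 1.13 in scrambled replicates and 1.14, 1.21 and 1.22 in knockdown replicates. Single libraries overlapped widely, from 1.02 to 1.22 in scrambled and 1.12 to 1.24 in knockdown cells, and this ratio was not tested.

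STAB1, on the plus strand of chromosome 3 from 52495338 to 52524495, was the least expressed of the 10 and had the largest fold change. Scrambled replicates had 104, 105 and 122 counts, or 1.38, 1.49 and 1.81 CPM. Knockdown replicates had 204, 134 and 139 counts, or 2.91, 2.09 and 2.15 CPM. All knockdown replicates were above all scrambled ones, with knockdown replicate 1 well above the other 2. STAB1 rose 1.54-fold (log2 fold change 0.62, SE 0.139, 95% interval 0.34 to 0.91, adjusted p = 0.00289 in edgeR). The exact Poisson 95% interval, which covers counting error only, was 1.51 to 2.17 CPM for scrambled replicate 3. For knockdown replicate 2 it was 1.75 to 2.48 CPM, which overlaps that range. These neighbours were not tested against each other. Scrambled library 3_3, at 2.65 CPM, was above 7 of the 9 knockdown libraries. Without knockdown replicate 1 the log2 fold change was 0.45 (adjusted p = 0.0304), and without scrambled replicate 3 it was 0.74 (adjusted p = 0.00248).

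Markers of cells that normally carry stabilin-1 were at trace levels. The 4 macrophage markers (CD14, CD163, MRC1 and MARCO) summed to 0.964 to 1.25 CPM in scrambled and 0.556 to 0.928 CPM in knockdown samples, with MARCO at 0. The 4 endothelial markers (CDH5, VWF, TEK and STAB2) summed to 0.178 to 0.304 CPM and 0.232 to 0.243 CPM. The 4 B-cell markers summed to 0.463 to 0.595 CPM in scrambled and 0.942 to 1.07 CPM in knockdown samples, with MS4A1 at 0, and the 4 T-cell markers to 4.62 to 5.20 and 6.75 to 6.97 CPM. Of these, 1 T-cell marker and 0 B-cell markers reached 1 CPM in any sample, so the sums rest on few genes. The 4 fibroblast markers summed to 2.45 to 3.15 CPM in scrambled and 2.30 to 2.97 CPM in knockdown samples. The highest T-cell marker reached 6.53 CPM, while CD3E stayed at or below 0.125 CPM and CD2 at or below 0.0446 CPM. The B-cell marker PAX5 stayed at or below 0.156 CPM. The lymphoid sums were higher in knockdown samples, and any link to STAB1 was not tested. In bulk RNA, more expressing cells and more RNA per cell cannot be told apart. NT5DC2, on the opposite strand, shares 111 exon bases with STAB1 and had a mean of 132 CPM in scrambled samples (log2 fold change 0.09, adjusted p = 0.0747).

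For 5 genes (RNASEH1, RNASEH2B, SFPQ, PSPC1 and STAB1) the replicates of the groups did not overlap, as for 34.6% of all genes tested. The exact permutation test, two-sided and over the 6 samples, gave each p = 0.1, which is the floor of a design with 3 replicates a group (0.2 after Benjamini-Hochberg adjustment over the 10 genes). For the other 5 the exact permutation p lay between 0.2 (XRN2) and 1.0 (RNASEH2C).

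The bases upstream of the 3 called genes are shown because these are the genes whose RNA changed. They come from RefSeq on GRCh38.p14, are given in the direction of transcription and end at the last base before any annotated exon. Capitals mark matches, on either strand, to the GC box GGGCGG (bound by SP1-family factors), the CCAAT box CCAAT, the TATA box TATAAA or the ETS core CCGGAA.
RNASEH2B, chr13:50909428-50909677, plus strand: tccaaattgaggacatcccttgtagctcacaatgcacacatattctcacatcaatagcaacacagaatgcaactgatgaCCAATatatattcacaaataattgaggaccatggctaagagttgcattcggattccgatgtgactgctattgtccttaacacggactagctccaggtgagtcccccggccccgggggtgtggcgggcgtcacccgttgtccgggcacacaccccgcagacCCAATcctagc
PSPC1, chr13:19783020-19783195, minus strand: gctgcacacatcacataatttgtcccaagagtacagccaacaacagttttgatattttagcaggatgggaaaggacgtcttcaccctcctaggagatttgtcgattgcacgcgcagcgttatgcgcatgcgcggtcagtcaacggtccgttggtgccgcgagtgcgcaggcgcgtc
STAB1, chr3:52495088-52495337, plus strand: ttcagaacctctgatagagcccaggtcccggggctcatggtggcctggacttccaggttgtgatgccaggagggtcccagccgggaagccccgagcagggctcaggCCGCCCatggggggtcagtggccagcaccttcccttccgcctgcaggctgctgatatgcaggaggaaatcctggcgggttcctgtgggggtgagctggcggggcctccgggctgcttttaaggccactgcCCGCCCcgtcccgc
RNASEH2B had 2 CCAAT matches and no match to the others, and STAB1 had 2 GC boxes, while the stretch shown for PSPC1 held none of the 4 motifs. The RefSeq start of PSPC1 lies 74 bases downstream of the GENCODE start, so its window ends inside annotated exon. The part of that window not shown held 1 ETS core. Over 35116 RefSeq windows of 250 bases before a start, 42.6% held a GC box, 32.0% a CCAAT box, 10.7% a TATA box and 14.5% an ETS core. Over all 250 bases of a window, CG dinucleotides numbered 10 for RNASEH2B, 11 for STAB1 and 22 for PSPC1, where the median window had 11. The count for PSPC1 includes the bases not shown. A match is a description of letters and not a bound site, and the 3 windows shared no motif. Windows were found for 9 of the 10 genes.

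Levels of different genes were set side by side only per length, as CPM per kilobase of annotated exon. In scrambled samples NONO stood at 92.7 ± 0.737 and SFPQ at 83.3 ± 0.306 CPM per kilobase (SD, n = 3). XRN2 followed at 26.1 ± 0.20, then RNASEH2A at 18.1 ± 0.624, RNASEH1 at 16.5 ± 0.188 and PSPC1 at 12.3 ± 0.128 CPM per kilobase. XRN1 (8.46 ± 0.176), RNASEH2C (6.85 ± 0.0865), RNASEH2B (1.24 ± 0.0129) and STAB1 (0.147 ± 0.0215 CPM per kilobase) were lower. No neighbours in this order overlapped over the 6 samples. The order depends on the length used, since per kilobase of the longest transcript SFPQ (165) stood above NONO (153) and PSPC1 (24.65) above RNASEH2A (23.95). By that length the values of PSPC1 and RNASEH2A overlapped over the 6 samples, as did those of RNASEH2C and XRN1. RNASEH2B had 4.46 CPM per kilobase by that length, because its annotated exons add up to 26291 bases and its longest transcript to 7282 bases. By either length the NONO and SFPQ RNAs were more abundant than those of the RNases, and STAB1 was the lowest.

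**Figure D3:**
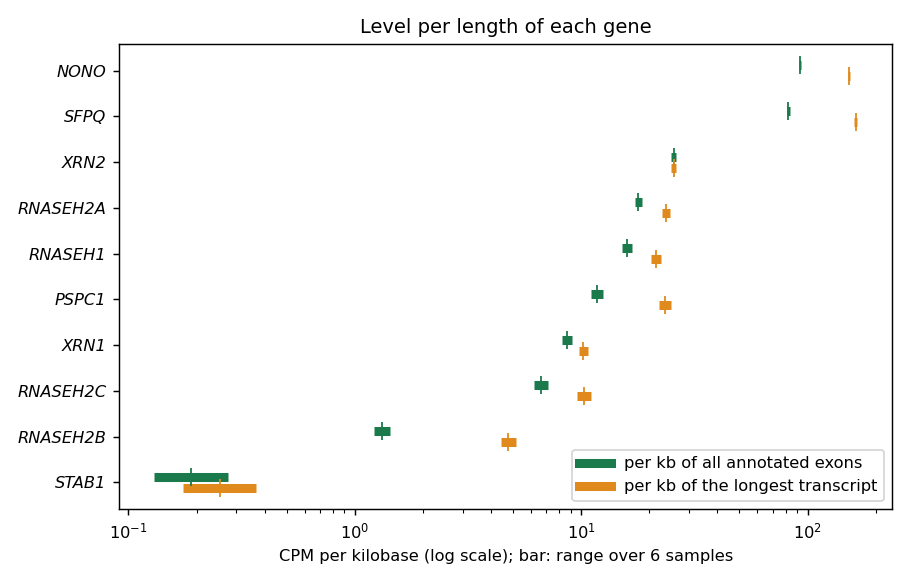
CPM per kilobase of each gene on a log axis, with bars spanning the 6 samples and ticks at the middle of each bar, by all annotated exons and by the longest transcript. NONO and SFPQ are at the top by both lengths, STAB1 is at the bottom, and RNASEH2B differs most between the lengths (1.24 and 4.46 in scrambled samples).

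Over the 18 libraries, the genes whose log2 CPM moved most like that of RNASEH1 included NCSTN, which encodes a subunit of gamma-secretase, and MFSD2B, a sphingosine-1-phosphate exporter gene (Pearson's r = 0.86 for each). They were among the 3 highest of 13820 genes compared, so high values are selected by the search. Among the other 9 genes r with RNASEH1 ran from 0.65 for RNASEH2C and 0.62 for RNASEH2A to -0.56 for RNASEH2B and -0.62 for XRN1. The libraries share replicates, treatment group and GC-dependent shifts. The transcripts of NCSTN and MFSD2B hold 50.1% and 56.1% GC, near the 51.7% of RNASEH1, and those of RNASEH2B and XRN1 hold 39.5% and 37.3%. STAB1, with 62.6% GC, had r = -0.44, and PSPC1, with 45.3%, had r = 0.44. Any part of GC content in these correlations was not tested.

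Genes that act beside these were examined in 8 lists, which held 165 genes other than the 10. Of the 153 tested, 13 rose and 11 fell, or 15.7% where 18.6% of all genes were called, and their median log2 fold change was -0.02. Without the GC-shifted pair, 17 rose and 46 fell, in a fit that called 32.0% of all genes, 16.5% as raised and 15.5% as lowered. With a correction for GC content, 17 rose and 45 fell, and 31.5% of all genes were called, 14.8% as raised and 16.7% as lowered. The counts of single lists below are to be read beside these shares. For the fit as reported, the shares over all genes are 11.1% raised and 7.49% lowered.

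Among paraspeckle genes, of 29 tested, 1 rose and 4 fell (NONO, SFPQ and PSPC1 are in the list, and PSPC1 is one that fell), with a median log2 fold change of -0.04. NEAT1, the RNA on which paraspeckles are built, fell from 294 ± 0.152 to 264 ± 1.57 CPM (SD, n = 3, log2 fold change -0.16, adjusted p = 9.38e-05 in edgeR). SS18L1, a chromatin regulator gene, had a log2 fold change of -0.14 (adjusted p = 0.00351, and 0.0549 with technical library 1 only). Among the called genes of the list, the exception in direction was SMARCA4, the ATPase gene of SWI/SNF complexes. SMARCA4 rose from 224 ± 2.76 to 356 ± 10.8 CPM (log2 fold change 0.67, adjusted p = 3.94e-14 in edgeR). Leaving out the GC-shifted pair, the list had 2 raised and 13 lowered, and 2 and 16 with a correction for GC content.

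Among other proteins known to bind phosphorothioate oligonucleotides, 1 of 30 genes rose and 4 fell (median log2 fold change -0.03). RAN, the GTPase gene of nuclear transport, went from 590 ± 7.18 to 548 ± 3.63 CPM (log2 fold change -0.11, adjusted p = 0.00221 in edgeR). HNRNPA2B1, an RNA-binding protein gene, was at -0.09 (adjusted p = 0.00612), and ANXA2, a membrane-binding annexin gene that is also in the endosomal list, at -0.10 (adjusted p = 0.00786, and up to 0.0687 without scrambled replicate 1 or 2). In the fit lacking the GC-shifted pair, 3 rose and 18 fell.

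RNA:DNA hybrid genes other than RNase H had 1 of 10 raised and 0 lowered, with a median of 0.009. The raised gene was SAMHD1, which encodes a nucleotide hydrolase, at 19.2 ± 0.785 CPM in scrambled and 22.6 ± 0.530 CPM in knockdown samples (log2 fold change 0.23, adjusted p = 0.000657 in edgeR). The fit lacking the pair had 2 raised and 3 lowered.

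Decapping and 5′-to-3′ decay genes, XRN1 and XRN2 included, had 2 of 21 raised and 0 lowered (median 0.01), and 1 raised and 2 lowered without the GC-shifted pair. EDC4, a scaffold of decapping, had a log2 fold change of 0.09 (adjusted p = 0.0448 in edgeR) and LSM5, of the LSM ring, one of 0.17 (adjusted p = 0.0357). Both were near the threshold in that fit. EDC4 passed by a wider margin without the GC-shifted pair (0.12, adjusted p = 1.31e-08), without knockdown replicate 3 (0.13, adjusted p = 6.72e-08) and with a correction for GC content (0.07, adjusted p = 0.000512). EDC4 was not called by DESeq2 or with RLE factors, nor without knockdown replicate 1 or 2 or any of the scrambled replicates. LSM5 was not called by DESeq2, without knockdown replicate 1 or 3, without scrambled replicate 1 or 2, with technical library 1 only, or without the GC-shifted pair. Its log2 fold change was 0.04 with technical library 1 only.

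Exosome and 3′-to-5′ decay genes had 1 of 25 raised and 4 lowered (median -0.03). EXOSC2, a cap subunit of the exosome, fell from 98.5 ± 3.11 to 89.0 ± 2.73 CPM (SD, n = 3, log2 fold change -0.15, adjusted p = 0.00324 in edgeR), and ZCCHC7, of the nuclear TRAMP-like cofactor, was at -0.12 (adjusted p = 0.011). SKIC2, the helicase gene of the cytoplasmic SKI complex, was at 0.10 (adjusted p = 0.0232). Without the GC-shifted pair SKIC2 was at 0.13 (adjusted p = 5.11e-09), and it was not called without knockdown replicate 1 or 2 or any of the scrambled replicates. ZCCHC7 was not called without knockdown replicate 1 or scrambled replicate 2 (adjusted p up to 0.0718). Leaving out the pair gave 1 raised and 10 lowered.

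Uptake receptor genes had 3 of 11 raised and 0 lowered, with a median of -0.02. Beside STAB1 these were SCARB1, a scavenger and lipoprotein receptor gene, which rose from 137 ± 1.46 to 151 ± 4.34 CPM (log2 fold change 0.14, adjusted p = 0.00136 in edgeR), and LRP1, an endocytic receptor gene, which rose from 1.44 ± 0.133 to 1.97 ± 0.151 CPM (0.46, adjusted p = 0.0117). LRP1 was not called by DESeq2, with technical library 1 only, or without knockdown replicate 2 or scrambled replicate 1. Of the 16 receptors listed, STAB2, ASGR2, EGFR, MSR1 and SIDT1 had too few counts to test, and SIDT1 had none. With the pair left out there were 3 raised and 1 lowered.

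Genes of endosomal traffic, through which oligonucleotides reach the cytoplasm, had 2 of 24 raised and 1 lowered (median 0.02). GCC2, a Golgi-tethering gene, had a log2 fold change of 0.18 (adjusted p = 0.00238 in edgeR), and PDCD6IP, of late endosomes, one of 0.08 (adjusted p = 0.041). PDCD6IP was not called with technical library 1 only, without knockdown replicate 1 or 2 or without any of the scrambled replicates. With the pair left out there were 3 raised and 2 lowered.

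Nucleases of single-stranded DNA, which could act on the oligonucleotides, had 3 of 12 raised and 0 lowered (median -0.02). PLD3, a lysosomal exonuclease gene, rose from 94.7 ± 1.89 to 106 ± 4.87 CPM (log2 fold change 0.16, adjusted p = 0.00169 in edgeR). EXD2, an exonuclease gene, was at 0.18 (adjusted p = 0.0104) and DNASE2, which encodes the lysosomal DNase II, at 0.16 (adjusted p = 0.0204). EXD2 was not called with technical library 1 only or without knockdown replicate 2 or scrambled replicate 1, and DNASE2 was not called without knockdown replicate 1 or scrambled replicate 2 or 3. With the pair left out there were 3 raised and 2 lowered.

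**Figure D4:**
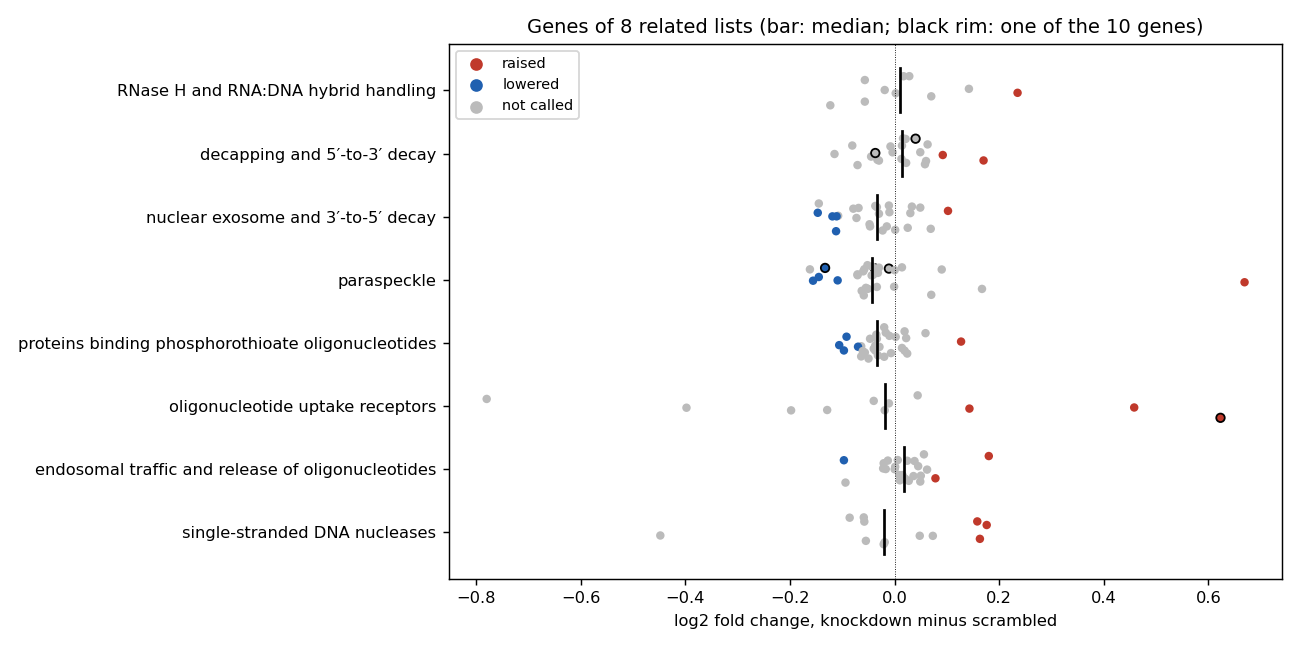
Log2 fold change, knockdown minus scrambled, of each tested gene in the 8 lists, coloured by its call in edgeR, with a bar at the list's median and a black rim around the 10 genes. Medians lie between -0.04 and 0.02, and SMARCA4 (0.67) and STAB1 (0.62) are the largest rises.

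The calls among the 10 genes were compared over 18 other ways of processing the counts. RNASEH2B and STAB1 passed as raised under all 18, with log2 fold changes of 0.16 to 0.19 and 0.45 to 0.74. PSPC1 passed as lowered under 17 of 18, with log2 fold changes of -0.16 to -0.12 over all 18. The directions of RNASEH1, RNASEH2A and RNASEH2C, none of which passed, changed under some of them.

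**Figure D5:**
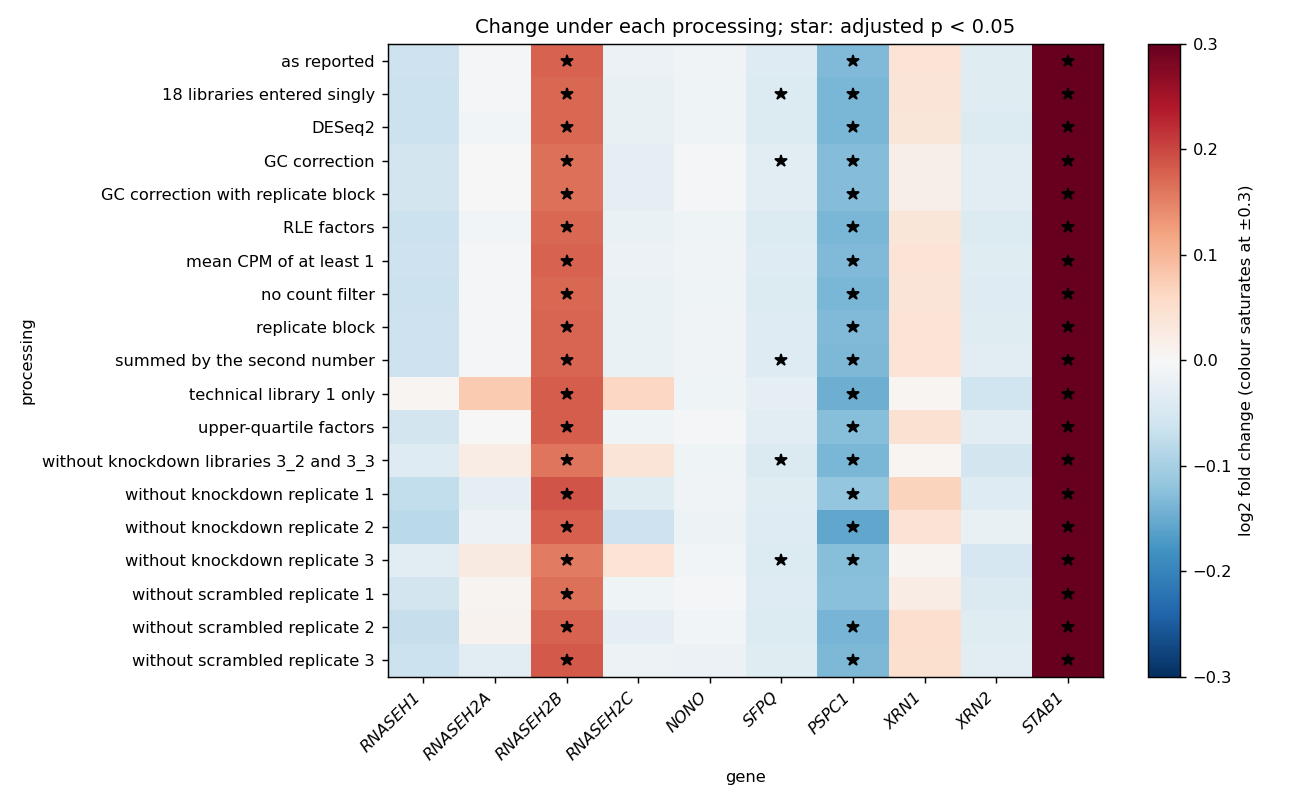
Log2 fold change of each gene (colour) under the reported processing and 18 alternatives (rows), with a star where the adjusted p is below 0.05 and the colour saturating at 0.3 in either direction. RNASEH2B and STAB1 carry a star in every row and PSPC1 in every row but the one without scrambled replicate 1, and SFPQ carries one in 5 rows.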

How the data were processed

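The submitters' processing notes name Trim Galore, STAR and featureCounts on GRCh38, with versions, annotation and strand setting not given in the sources used here. Libraries were directional and ribosomal RNA was depleted, per the labels' protocols. The deposited table holds raw counts per gene symbol for 18 libraries, not normalized by the authors. The labels speak of gapmers under treatment but of siRNA in some descriptions, and the treatment field was followed.

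Groups came from sample titles. The first number in a library name was taken as the biological replicate, and its 3 technical libraries were summed. Summed counts went into a robust quasi-likelihood fit (edgeR 4.0.16 under R 4.3.3) after filterByExpr and TMM scaling, over 15678 genes, with Benjamini-Hochberg adjustment. Confidence intervals used the fit's degrees of freedom, and log2 CPM had a prior count of 2. Alternatives were DESeq2 1.42.0, other scaling and filters, other ways of summing libraries, a replicate block and each replicate left out. The procedure was tested on simulated data. Lengths, GC content and overlaps came from GENCODE release 29, matched by symbol for 26171 of 27781 genes, and upstream bases from RefSeq.

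The rule that named the 10 genes used no measured value, but it and the 8 lists were set with earlier results of these data known. The genes named were PCMTD1, the 10, up to 3 called genes per list by smallest p, and the 3 genes most like RNASEH1, of which 1 is not reported here. KAT5, NT5DC2, RNASEH2B-AS1 and THSD8 were named as overlapping genes. GC correction (lowess, span 0.3), alone and with the replicate block, and the fit lacking the GC-shifted pair were chosen after earlier results had been seen.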

Additional observations from a re-analysis of the deposited data

Results flagged for a closer look

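Among 20 sets of 9 libraries (the 10 genes in each group), 3 held a library far from the other 8, where chance gives about 1 in 20. RNASEH2A was at 59.8 CPM in scrambled library 3_1, with the next library at 64.0 CPM. XRN2 was at 79.6 CPM in scrambled library 1_3, with the next at 88.5 CPM. STAB1 was at 2.65 CPM in scrambled library 3_3, with the next at 1.72 CPM. Technical libraries of a replicate are not independent samples.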

How the results depend on the processing

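RNASEH2B and STAB1 stayed called under all 18 alternatives, and PSPC1 under all but the fit without scrambled replicate 1. Lowered genes among the 10 numbered 2 (PSPC1 and SFPQ) with 18 libraries entered singly, with libraries summed by the second number, with GC correction and without the GC-shifted pair, and 0 to 2 with a replicate left out. They were 0 without scrambled replicate 1. The fits with libraries entered singly or summed by the second number do not take replicates as samples. Their p-values do not measure the spread between replicates. The direction of RNASEH2A (-0.005 as reported) turned with GC correction (0.002, also with the block), upper-quartile factors (0.001), technical library 1 only (0.079), without the GC-shifted pair (0.023), without knockdown replicate 3 (0.027) and without scrambled replicate 1 (0.008) or 2 (0.010), and ran from -0.033 to 0.027 with a replicate left out. RNASEH2C (-0.061 to 0.040 with a replicate left out) turned to 0.061, 0.038 and 0.040 with technical library 1 only, without the pair and without knockdown replicate 3, and RNASEH1 to 0.007 with technical library 1 only. None of these passed the test.

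Over all genes, 1745 were raised and 1175 lowered. Lowered genes numbered 2036 with libraries entered singly, 2389 summed by the second number, 2619 with GC correction, 2637 with GC correction and the block, and 2426 without the GC-shifted pair. With a replicate left out there were 1127 to 2482 raised and 623 to 2280 lowered. In the lists, genes beside the 10 lowered numbered 32, 41, 45, 46 and 46 under the same 5 settings in that order, and 7 to 18 raised and 6 to 44 lowered with a replicate left out, against 13 and 11. The causes were not tested. With the replicate block, 1772 genes were lowered (22 in the lists) and 2213 raised, and the calls among the 10 genes were the same. Same-numbered samples deviated together with correlations of 0.030, 0.011 and 0.011, and not every sample correlated best with its own number, so the numbers were not taken to pair samples. Depth limits STAB1 most, with 104 to 204 counts per sample.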

Other observations

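Several listed genes had too few counts to test. STAB2 had 4 counts over all 18 libraries, EGFR 9, ASGR2 6 and MSR1 26, and the lysosomal exonuclease gene PLD4 had 12. DDX39B, a helicase gene of mRNA export, had 53 counts over the 18 libraries, from 0.0714 to 0.170 CPM per sample. The annotation used for counting is not given, so a low count need not mean little RNA.

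Technical libraries of 1 replicate varied by a median coefficient of variation of 1.0% for SFPQ, 1.1% for NONO, 2.5% for RNASEH1, 4.1% for RNASEH2B, 5.7% for RNASEH2C and 10.9% for STAB1. Counting error alone gives 0.85%, 0.95%, 3.07%, 3.56%, 3.55% and 14.9% for a library of average count. The largest values were 40.7% for STAB1 in scrambled replicate 3 and 13.0% for RNASEH2C in knockdown replicate 3.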
